A study of Mus musculus with 6 samples.

Results

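The 37 genes described here are imprinted genes of the mouse that lie outside distal chromosome 7 and outside the Dlk1-Dio3 cluster of chromosome 12. They were chosen by symbol from 24453 gene symbols counted in each library, and all 37 were found. The selection was made with the fold changes between the same libraries known, so the counts of genes that rose or fell describe the set and support nothing further. RNA was sequenced from hair follicle cells that had been sorted by flow cytometry from back skin at postnatal day 0. There were 3 control libraries, whose genotype is named only as control, and 3 mutant libraries with the alleles Ring1a-/- Ring1b-/I53A. The mutant thus joins loss of Ring1a, a null allele of Ring1b and the I53A allele, and no group separates them. Whether the libraries of a group came from separate animals is not stated, so the p-values measure the spread between these libraries, part of which may be technical.

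Imprinted genes are expressed mainly or only from the copy inherited from one parent. Most, but not all, lie in domains governed by a stretch of DNA that is methylated in the egg or in the sperm. Many regulate growth of the fetus and placenta, and some are imprinted only in the placenta, the brain or single transcripts. Ring1a (gene Ring1) and Ring1b (gene Rnf2) are the ubiquitin ligases of Polycomb repressive complex 1 (PRC1), which marks histone H2A at silent genes. The I53A change is known to impair that ligase activity while leaving the protein in place. Read counts per gene do not tell the parental copies apart, so every value below is the sum of both. In sorted bulk cells, more cells expressing a gene and more RNA per cell cannot be told apart either.

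Levels are counts-per-million values (CPM). A gene was called where edgeR's quasi-likelihood test gave an adjusted p under 0.05 over the 14345 genes tested. Library totals ran from 14335156 to 18811587 counts, and 1 CPM was 14.7 to 18.2 reads. Ring1 had 16.8, 22.1 and 21.1 CPM across the control libraries and 3.23, 7.10 and 4.88 CPM across the mutant libraries, every mutant below every control. Its mean fell from 20.01 ± 2.80 to 5.07 ± 1.94 CPM (SD, n = 3 libraries each), a log2 fold change of -1.98 ± 0.33 (SE) with an adjusted p of 0.0113. Rnf2 averaged 59.8 CPM in controls and 67.1 CPM in mutants (adjusted p = 0.736), and a count per gene does not show the I53A change. Markers of basal keratinocytes summed to 12363 to 15152 CPM in controls and 13645 to 18973 CPM in mutants, and those of follicle epithelium to 1559 to 2030 CPM and 1473 to 2050 CPM. Ly6a, which encodes the sorting antigen Sca1, averaged 0.852 CPM in controls and 1.23 CPM in mutants, although the sort described with the samples is a Sca1-positive gate for interfollicular epidermis. The interfollicular list summed to 4196 to 5665 CPM in controls, more than the follicle list, and to 2719 to 4436 CPM in mutants. Krt1, at 3358 and 2126 CPM, made up most of that sum. Of the list's 7 tested markers 5 had a log2 fold change above 0, with a median of 0.53. Krtdap and Ivl were higher in every mutant library, as were 12.1% of all genes tested. By edgeR's test at an unadjusted p under 0.05, 1 of the 7 rose and 2 fell, against 9.5% and 5.44% of all genes. The libraries thus held markers of both the follicle and the interfollicular epidermis.

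Of the 37 genes, 32 had enough reads to be tested, and 4 of them rose in the mutant while 0 fell by edgeR's test. None fell by DESeq2, by limma-voom or at an unadjusted p under 0.05, and 6, 4 and 9 rose. Over all genes, 5.15% rose and 1.72% fell by DESeq2, 2.5% and 0.453% by limma-voom, and 9.5% and 5.44% at an unadjusted p under 0.05. The 4 were Sfmbt2, Grb10, Ppp1r9a and Zdbf2, at 3.28 to 17.2 times the control level. Over all genes tested, 2.59% rose and 0.404% fell. Of the 14 alternative fits, every one called these 4. They lie in 4 of the 19 domains that the set spans, on chromosomes 2, 11, 6 and 1. A fit that takes the shared replicate number as a block also called Peg10, Sgce and Peg13 as higher, which made 7 risen and 0 fallen, against 6.09% risen and 3.29% fallen over all genes. Deviations of libraries with the same number went together, as described with the processing. Of the 32, 21 had a log2 fold change above 0, as had 7132 of all 14345 genes, and the median was 0.12, against -0.003 over all genes. The values of 11 tested genes were higher in all mutant than in all control libraries and those of 2 were lower, against 12.1% and 9.15% of all genes.

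**Figure D1:**
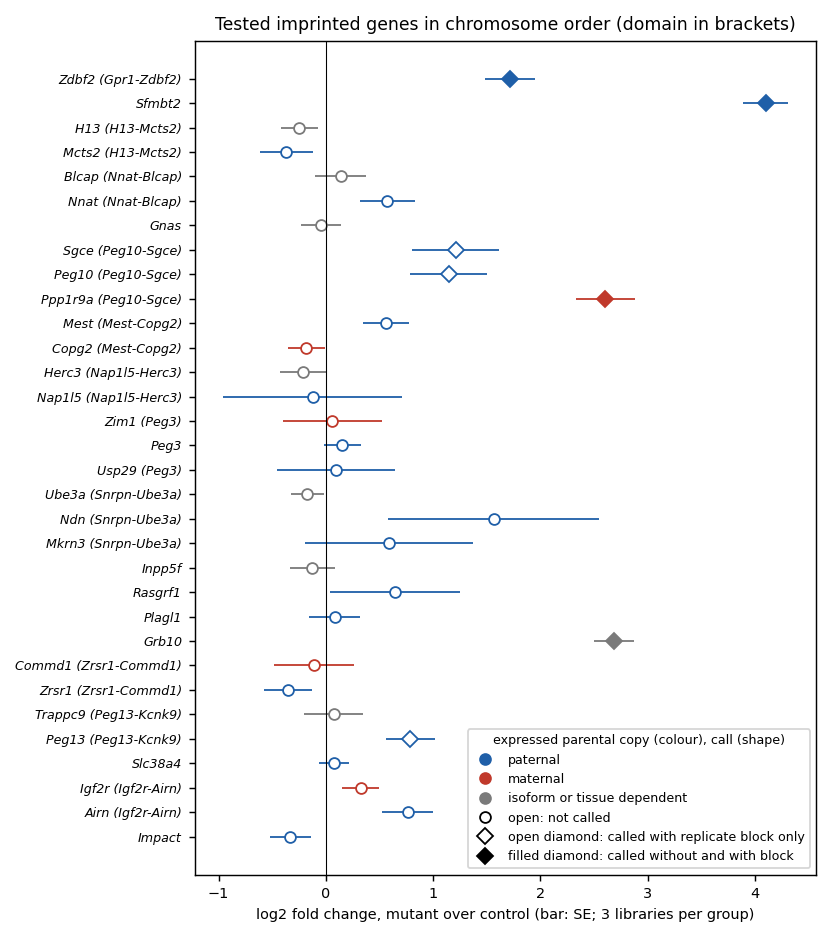
Log2 fold change of mutant over control for the 32 tested imprinted genes, in chromosome order, with bars for the SE (3 libraries per group) and colours for the expressed parental copy. Sfmbt2, at 4.10, lies farthest to the right, and the 25 genes called with neither model lie between -0.37 and 1.56.

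The 4 genes called in every fit are shown first by the DNA just before their starts, because the results turn on these genes. Each line gives the 250 bases upstream of an annotated start, from RefSeq on GRCm38.p6, 5′ to 3′ on the gene's strand. The table of starts covered 31 of the 37 genes, with 47 starts in all, and for each gene the window with the most CpG sites is printed, and for Zdbf2 the upstream one as well. The capitals mark TGCCGC or, on the other strand, GCGGCA, the hexamer that the imprint-protecting zinc finger protein ZFP57 binds when it is methylated.
Zdbf2, chr1:63200108-63200357, plus strand: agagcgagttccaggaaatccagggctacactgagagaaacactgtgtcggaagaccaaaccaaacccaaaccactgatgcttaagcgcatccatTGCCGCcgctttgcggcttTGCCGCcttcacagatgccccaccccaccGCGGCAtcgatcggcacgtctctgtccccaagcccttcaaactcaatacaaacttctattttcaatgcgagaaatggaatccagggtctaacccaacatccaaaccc
Zdbf2, chr1:63273019-63273268, plus strand: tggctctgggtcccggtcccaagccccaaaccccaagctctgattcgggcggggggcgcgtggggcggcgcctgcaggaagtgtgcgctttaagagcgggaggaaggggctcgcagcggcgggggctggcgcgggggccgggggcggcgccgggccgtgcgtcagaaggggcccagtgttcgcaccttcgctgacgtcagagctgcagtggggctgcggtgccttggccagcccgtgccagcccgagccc
Sfmbt2, chr2:10372186-10372435, plus strand: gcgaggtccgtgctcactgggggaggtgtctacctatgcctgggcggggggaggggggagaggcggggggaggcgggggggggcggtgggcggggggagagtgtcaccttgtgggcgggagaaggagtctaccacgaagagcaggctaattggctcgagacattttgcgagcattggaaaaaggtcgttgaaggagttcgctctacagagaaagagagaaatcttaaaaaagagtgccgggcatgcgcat
Grb10, chr11:12037421-12037670, minus strand: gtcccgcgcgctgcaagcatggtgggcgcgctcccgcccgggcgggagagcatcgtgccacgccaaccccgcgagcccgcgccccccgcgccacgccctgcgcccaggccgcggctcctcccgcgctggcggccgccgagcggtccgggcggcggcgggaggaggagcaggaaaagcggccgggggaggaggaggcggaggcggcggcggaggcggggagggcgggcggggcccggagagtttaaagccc
Ppp1r9a, chr6:4903061-4903310, plus strand: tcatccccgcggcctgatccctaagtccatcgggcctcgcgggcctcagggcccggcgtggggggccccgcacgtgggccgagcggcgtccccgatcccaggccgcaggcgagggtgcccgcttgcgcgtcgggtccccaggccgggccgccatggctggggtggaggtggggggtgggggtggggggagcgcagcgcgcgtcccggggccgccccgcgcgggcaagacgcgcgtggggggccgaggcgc

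The upstream Zdbf2 window held 3 matches, a number that 24 of 32851 promoter windows (0.0731%) reached. It stands out as the only one of the 8 windows of the 4 called genes that held any. The window at the downstream Zdbf2 start held 26 CpG sites and no match, and those of Sfmbt2, Grb10 and Ppp1r9a held 15, 40 and 35 CpG sites and no match. Across the set, 8 of 47 windows (17.02%) held at least 1 match, against 8.68% of all windows. The hexamer itself holds a CpG site. The windows of the set held a median of 12 such sites, against 6 in all windows, and the shares were not matched for this. The 8 windows with a match belong to 7 genes, since a pair of Mest windows overlap almost wholly. The windows of the 4 called genes held a match in 1 of 8 (12.5%), and those of the other genes in 7 of 39 (17.95%). The median number of CpG sites was 14 in the 8 windows of the 4 called genes, 11 in those of the other 27 genes and 6 in all windows. A match is a match of letters, and a window without one shows only that the letters are not within those 250 bases.

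Sfmbt2 encodes a Polycomb group protein with MBT repeats and is known to be expressed from the paternal copy in extraembryonic tissue. It had 4.09, 3.33 and 3.35 CPM across the control libraries and 59.5, 62.5 and 62.6 CPM across the mutant libraries. The controls were uniformly low and the mutants uniformly high, with a wide gap between the groups. The mean rose from 3.59 ± 0.434 to 61.6 ± 1.75 CPM (SD, n = 3 libraries each), a ratio of 17.2 and a log2 fold change of 4.10 ± 0.21 (SE) with an adjusted p of 3.2e-05. The reads behind it were 60, 53 and 59 in control libraries and 1086, 1049 and 936 in mutant libraries. The gene lies at chr2:10370510-10595253, plus strand (GENCODE, GRCm38), and an intron holds a large cluster of microRNA genes. Of 57 microRNA genes counted within it, 24 had any read, with 67 reads in controls and 115 in mutants. They summed to 2.18, 0.941 and 1.14 CPM in the control libraries and 2.14, 1.91 and 2.94 CPM in the mutant libraries, ranges that overlap. These copies are nearly identical in sequence, and the library method is not one for small RNA, so their reads are uncertain.

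Grb10 encodes an adaptor protein that binds the insulin and IGF1 receptors and restrains growth. It is known to be expressed from the maternal copy in most tissues and from the paternal copy, through another promoter, in neurons. Its levels were 31.8, 30.4 and 38.0 CPM across the control libraries and 186, 258 and 202 CPM across the mutant libraries. The lowest mutant library was well above the highest control library. The mean rose from 33.4 ± 4.08 to 215 ± 37.9 CPM (SD, n = 3 libraries each), a ratio of 6.45 and a log2 fold change of 2.69 ± 0.19 (SE) with an adjusted p of 0.000260. The gene lies at chr11:11930508-12038683, minus strand. The count sums its promoters, so it does not show which parental transcript rose.

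On proximal chromosome 6, the domain of Peg10 and Sgce held 4 of the genes. Ppp1r9a encodes neurabin, a scaffold that binds actin and protein phosphatase 1, and is known to be expressed from the maternal copy in extraembryonic tissue. It had 8.99, 7.59 and 14.6 CPM across the control libraries and 72.9, 64.3 and 53.0 CPM across the mutant libraries. All mutants lay far above all controls, although control 3 was the highest of its group and mutant 3 the lowest of its own. The mean rose from 10.4 ± 3.70 to 63.4 ± 9.95 CPM (SD, n = 3 libraries each), a ratio of 6.10 and a log2 fold change of 2.61 ± 0.28 (SE) with an adjusted p of 0.00110. The gene lies at chr6:4902917-5165661, plus strand.

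Peg10 (chr6:4747306-4760517, plus strand) and Sgce (chr6:4674350-4747207, minus strand) are both expressed from the paternal copy, and their annotated starts lie 0.099 kb apart on opposite strands. Peg10, which derives from a retrotransposon and is needed by the placenta, had 12.9, 13.5 and 24.5 CPM across the control libraries and 27.5, 27.8 and 57.6 CPM across the mutant libraries. Its groups did not overlap, and library 3 was the highest in both. The log2 fold change was 1.14 ± 0.36 (SE), with an adjusted p of 0.143 without the replicate block and 0.00379 with it. Of the 6 unblocked fits that left out 1 library, only the 1 without control 3 called Peg10, at an adjusted p of 0.0348. The others gave up to 0.372. DESeq2 called it at 0.0399. Sgce, which encodes epsilon-sarcoglycan of the dystrophin-associated complex, had 8.45, 3.95 and 14.6 CPM across the control libraries and 17.4, 23.8 and 21.5 CPM across the mutant libraries. Its controls were spread more widely than its mutants, and no mutant was below any control. The log2 fold change was 1.21 ± 0.41 (SE), with an adjusted p of 0.180 without and 0.0494 with the block. Of the 6 unblocked fits that left out 1 library, only the 1 without control 3 called Sgce, at an adjusted p of 0.0219. The others gave up to 0.430. Asb4, the fourth gene of the domain and one expressed from the maternal copy, had 4 reads over the control and 12 over the mutant libraries. That is a ratio of 2.90 with an exact 95% interval from 0.878 to 12.3 for counting error only, and Asb4 was not tested.

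Zdbf2, a zinc finger gene expressed from the paternal copy, is known for effects on growth after birth. It had 39.9, 44.7 and 59.5 CPM across the control libraries and 139, 128 and 206 CPM across the mutant libraries. Library 3 was the highest in both groups, and the groups did not overlap. The mean rose from 48.0 ± 10.2 to 158 ± 42.1 CPM (SD, n = 3 libraries each), a ratio of 3.28 and a log2 fold change of 1.71 ± 0.23 (SE) with an adjusted p of 0.00467. The annotated gene lies at chr1:63273265-63314576, plus strand, and RefSeq places a further start upstream of it, the first of the sequences above. Counts per gene do not separate the transcripts of these starts.

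**Figure D2:**
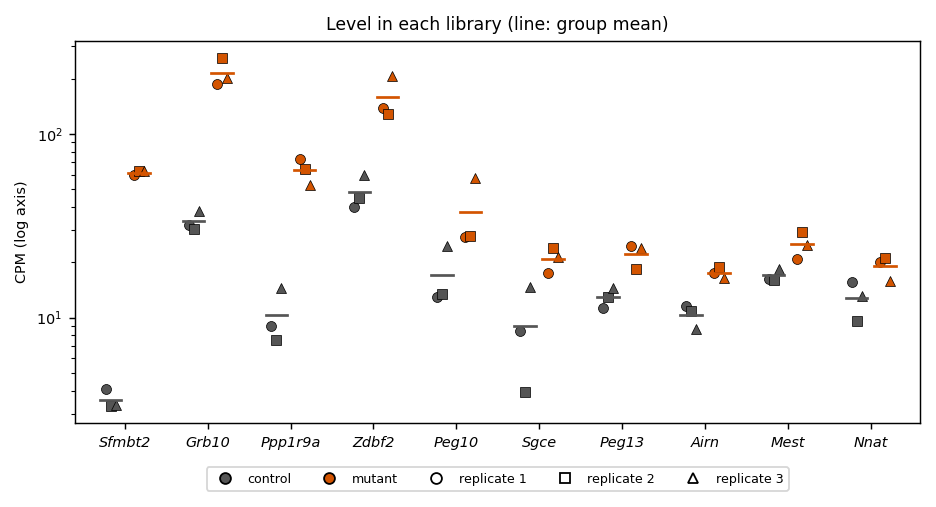
CPM (log axis) in each control and mutant library for 10 of the imprinted genes whose groups do not overlap, with lines at the group means and marker shapes for the replicate number. The mutants exceed the controls by the widest margin in Sfmbt2, while the Nnat groups, at 15.6 CPM for the highest control and 15.8 CPM for the lowest mutant, almost touch.

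The long noncoding RNAs Peg13 and Airn, both expressed from the paternal copy, were higher in every mutant library than in any control, at ratios of 1.73 and 1.70. Peg13, a noncoding RNA within an intron of Trappc9 at chr15:72805600-72810324, minus strand, had 11.2, 12.9 and 14.6 CPM across the control libraries and 24.6, 18.3 and 24.0 CPM across the mutant libraries. The log2 fold change was 0.79 ± 0.23 (SE), with an adjusted p of 0.118 without and 0.0484 with the block, and DESeq2 called it at 0.0479. Of the 6 unblocked fits that left out 1 library, 0 called Peg13, with adjusted p-values of up to 0.334. Trappc9, a trafficking factor transcribed on the same strand and sharing no exon base with Peg13, averaged 15.1 CPM in controls and 15.9 CPM in mutants (log2 fold change 0.07 ± 0.28 (SE)). Kcnk9, a potassium channel gene of that domain expressed from the maternal copy, had 0 reads in all 6 libraries, which allows up to 0.0622 CPM over the controls and 0.0600 CPM over the mutants.

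Airn, the RNA that silences Igf2r on the paternal copy, had 11.5, 10.9 and 8.68 CPM across the control libraries and 17.5, 18.8 and 16.4 CPM across the mutant libraries. Its groups did not overlap, and the log2 fold change was 0.76 ± 0.24 (SE) with an adjusted p of 0.140 without and 0.0574 with the block. Igf2r, the receptor that clears IGF2 and is expressed from the maternal copy, had 135, 121 and 168 CPM across the control libraries and 189, 153 and 189 CPM across the mutant libraries. The groups overlapped, with a log2 fold change of 0.33 ± 0.17 (SE) and an adjusted p of 0.435. Thus neither gene of this domain passed the test in either model, and neither value was below 0. The genes overlap on opposite strands without sharing exon bases.

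Nnat and Mest, both expressed from the paternal copy, also had groups without overlap. Nnat, which encodes a small membrane protein of the endoplasmic reticulum, had 15.6, 9.54 and 13.2 CPM across the control libraries and 20.01, 21.2 and 15.8 CPM across the mutant libraries (log2 fold change 0.57 ± 0.26 (SE), adjusted p = 0.341). Blcap, which surrounds it on the other strand, had 31.2, 24.3 and 20.1 CPM across the control libraries and 32.5, 28.6 and 22.2 CPM across the mutant libraries (log2 fold change 0.14 ± 0.24 (SE)). The Blcap groups overlapped. Mest, which encodes a hydrolase-like protein of mesoderm, had 16.3, 16.1 and 18.5 CPM across the control libraries and 20.9, 29.1 and 25.0 CPM across the mutant libraries (log2 fold change 0.56 ± 0.21 (SE), adjusted p = 0.245). Copg2, a coatomer subunit, had 62.3, 70.03 and 56.0 CPM across the control libraries and 60.3, 50.6 and 55.0 CPM across the mutant libraries (log2 fold change -0.18 ± 0.17 (SE)). Mest and Copg2 share 912 exon bases on opposite strands, which is 23.1% of the Mest exons, and since the strand setting of the counting is not given their reads there cannot be told apart.

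The genes of the set with the highest levels in controls did not pass the test. Peg3, a zinc finger gene of proximal chromosome 7 expressed from the paternal copy, had 929, 827 and 1156 CPM across the control libraries and 1238, 1031 and 971 CPM across the mutant libraries. The groups overlapped, and the log2 fold change was 0.15 ± 0.17 (SE) with an adjusted p of 0.770. Its neighbours Usp29 and Zim1 were low, at 2.54 and 2.91 CPM in controls and 2.71 and 3.05 CPM in mutants. Gnas, which encodes the stimulatory G protein subunit and transcripts imprinted in opposite directions, had 610.0, 712 and 807 CPM across the control libraries and 556, 661 and 846 CPM across the mutant libraries (log2 fold change -0.05 ± 0.19 (SE)). Mutant and control values interleaved. Slc38a4, an amino acid transporter important in the placenta, had 280.2, 258 and 279 CPM across the control libraries and 279, 318 and 266 CPM across the mutant libraries (log2 fold change 0.08 ± 0.14 (SE)). Plagl1, a zinc finger factor expressed from the paternal copy, had 107, 93.1 and 120.2 CPM across the control libraries and 81.3, 100.0 and 157 CPM across the mutant libraries (log2 fold change 0.08 ± 0.24 (SE)), with the mutants spread more widely than the controls.

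Genes with imprinting that depends on the isoform or tissue include Ube3a, Inpp5f and Herc3, which did not pass the test either. Ube3a, a ubiquitin ligase imprinted in neurons, had 82.0, 86.3 and 73.4 CPM across the control libraries and 70.4, 74.4 and 69.5 CPM across the mutant libraries (log2 fold change -0.17 ± 0.15 (SE)), and it shares 1803 exon bases with Snhg14 on the other strand. Inpp5f, a phosphoinositide phosphatase gene, had 70.9, 56.2 and 69.6 CPM across the control libraries and 72.8, 46.2 and 61.4 CPM across the mutant libraries (log2 fold change -0.13 ± 0.21 (SE)). Herc3, a ligase gene with a HECT domain, had 26.2, 31.9 and 22.6 CPM across the control libraries and 27.1, 20.9 and 21.7 CPM across the mutant libraries (log2 fold change -0.21 ± 0.22 (SE)). In each of the 3, the groups overlapped. Nap1l5, a retrogene within Herc3 expressed from the paternal copy, averaged 0.955 CPM in controls and 0.872 CPM in mutants.

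H13, a signal peptide peptidase gene, had 96.3, 71.7 and 76.1 CPM across the control libraries and 72.8, 70.003 and 62.8 CPM across the mutant libraries (log2 fold change -0.25 ± 0.17 (SE)). Mcts2, a retrogene in an intron of H13 expressed from the paternal copy, had 20.2, 24.8 and 16.1 CPM across the control libraries and 12.8, 17.9 and 16.6 CPM across the mutant libraries (log2 fold change -0.37 ± 0.25 (SE)). Both had lower mutant means and overlapping groups. The genes with every mutant library below every control were Zrsr1 and Impact. Zrsr1, a retrogene related to a splicing factor, had 19.3, 25.0 and 18.4 CPM across the control libraries and 17.3, 14.7 and 17.1 CPM across the mutant libraries (log2 fold change -0.35 ± 0.22 (SE), adjusted p = 0.526). Commd1, in which Zrsr1 lies on the other strand with 412 shared exon bases, averaged 4.85 CPM in controls and 4.49 CPM in mutants. Impact, whose protein restrains the GCN2 stress kinase, had 41.6, 39.0 and 39.4 CPM across the control libraries and 37.5, 31.6 and 26.4 CPM across the mutant libraries (log2 fold change -0.33 ± 0.19 (SE), adjusted p = 0.493). Rasgrf1, an exchange factor for Ras expressed from the paternal copy, averaged 2.93 and 4.57 CPM, with a log2 fold change of 0.65 ± 0.60 (SE).

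In the central domain of chromosome 7, the genes of the set expressed from the paternal copy in brain were close to silent here. Snhg14, which overlaps Ube3a there and is not in the set, averaged 5.29 CPM in controls and 2.40 CPM in mutants. Its log2 fold change was -1.14 ± 0.40 (SE), with an adjusted p of 0.201. Magel2, a MAGE family gene, had no read in any control library and 10, 15 and 7 reads in the mutant libraries (0.548, 0.894 and 0.468 CPM). Against a floor of 3 counts over the control group, that is at least 10.3-fold higher, while the lower limit of the exact 95% interval of the ratio was 7.90. Peg12, a relative of the FRAT regulators of Wnt signalling, had no read in any control library and 24, 8 and 3 reads in the mutant libraries, at least 11.3-fold higher against the same floor, with an exact lower limit of 8.68. Without mutant 1, the bound for Peg12 against the floor was 5.57-fold. All mutant libraries thus held reads of both genes and no control library did. Both were under the expression filter, and with no filter their adjusted p-values were 0.0989 and 0.103. Ndn, which encodes necdin, had 0.954, 0 and 1.70 CPM across the control libraries and 3.01, 1.85 and 3.08 CPM across the mutant libraries (log2 fold change 1.56 ± 0.99 (SE), adjusted p = 0.528). Mkrn3 averaged 0.603 CPM in controls and 0.903 CPM in mutants. Snrpn was listed at 0 in every library, as was Snurf, with which it shares 216 exon bases, so the files carry no measure of that transcript.

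By expressed copy, 22 genes are expressed from the paternal copy, 7 from the maternal copy and 8 by isoform or tissue. Of the 19 tested paternal genes, 2 rose without the block (Sfmbt2 and Zdbf2) and 5 with it, 15 had a log2 fold change above 0 and the median was 0.57. Of the 5 tested maternal genes, 1 rose (Ppp1r9a), 3 were above 0 and the median was 0.06. Of the 8 isoform- or tissue-dependent genes, 1 rose (Grb10), 3 were above 0 and the median was -0.09. Over all genes tested, 2.59% rose without the block and 6.09% with it, and 7132 of 14345 were above 0. Risen genes thus occurred in each class as listed. Sfmbt2 and Ppp1r9a, though, are known to be imprinted in extraembryonic tissue, and Ppp1r9a was the only risen gene listed as maternal. Read counts do not show which copy was expressed in these cells, and a difference between the classes was not tested.

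Levels between genes are compared per kb of annotated exon. In controls the order began with Peg3 at 72.8 CPM per kb, Slc38a4 at 64.0 and Gnas at 63.4, followed by Mcts2 at 22.4 and Igf2r at 15.2 CPM per kb. In mutants Peg3 was at 81.0, Slc38a4 at 67.6 and Gnas at 61.4 CPM per kb. Grb10 was next, having gone from 3.67 to 23.7 CPM per kb, above Igf2r at 19.02. Zdbf2 went from 3.79 to 12.5, Sfmbt2 from 0.393 to 6.74 and Ppp1r9a from 0.715 to 4.36 CPM per kb. Among the 37, 7 averaged under 1 CPM in both groups.

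**Figure D3:**
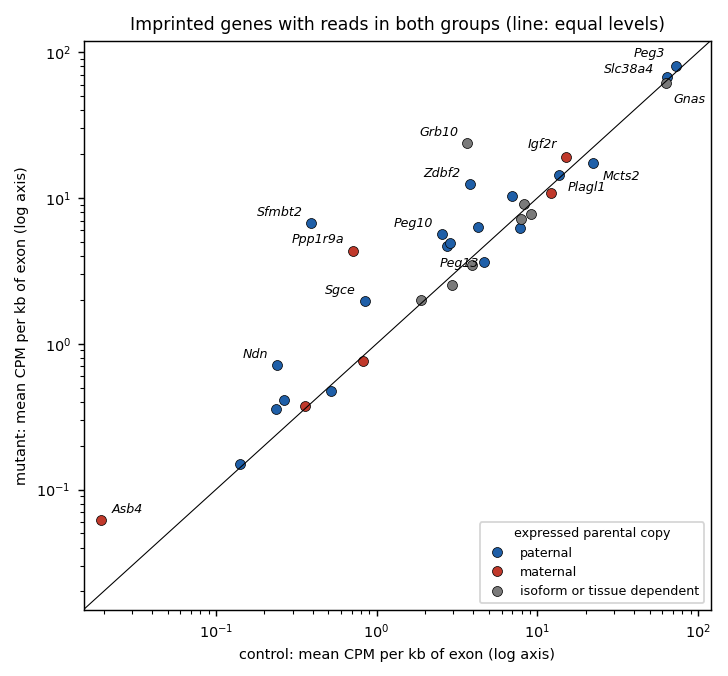
Mean CPM per kb of exon in mutants against controls (log axes, 3 libraries per group) for imprinted genes with reads in both groups, coloured by expressed parental copy, with a line of equal levels. Sfmbt2, Grb10, Ppp1r9a and Zdbf2 lie farthest above the line among genes over 0.1 CPM per kb in controls, while Peg3, Slc38a4 and Gnas lie on or near it at the top.

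Around the 7 genes called with or without the block, 27 neighbouring genes with starts within 500 kb were tested, of which 23 were not imprinted genes of the set and 4 were Ppp1r9a, Peg10, Sgce and Trappc9, as neighbours of one another or of Peg13. Without the block, 0 of the 23 were called by edgeR's test and 0 by limma-voom, where 2.59% and 2.5% of all genes rose. By DESeq2 2 rose, against 5.15% of all genes, and 3 rose at an unadjusted p under 0.05, against 9.5% of all genes. With the block 2 of the 23 rose, against 6.09% of all genes, and so few genes do not set the neighbours apart. Both lie before Sfmbt2, at -480.5 kb (Gata3) and -489.3 kb (4930412O13Rik) on its strand. Gata3, a transcription factor gene of the hair follicle's inner root sheath, averaged 187 CPM in controls and 293 CPM in mutants (log2 fold change 0.65 ± 0.18 (SE), adjusted p = 0.00653 with the block). The unnamed transcript 4930412O13Rik averaged 27.3 and 49.1 CPM (adjusted p = 0.0496 with the block). The 7 tested neighbours of Sfmbt2 lay between -0.25 and 1.83 in log2 fold change. The highest was 9230102O04Rik, averaging 0.890 CPM in controls and 3.18 CPM in mutants (1.83 ± 0.61 (SE)), which was not called with or without the block. Around Zdbf2, 7 neighbours lay between -1.08 and 0.03 in log2 fold change, and around Grb10 the 3 tested neighbours lay between -0.61 and 0.42. Near Ppp1r9a, the other risen genes were its imprinted neighbours Peg10 and Sgce, called with the block.

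**Figure D4:**
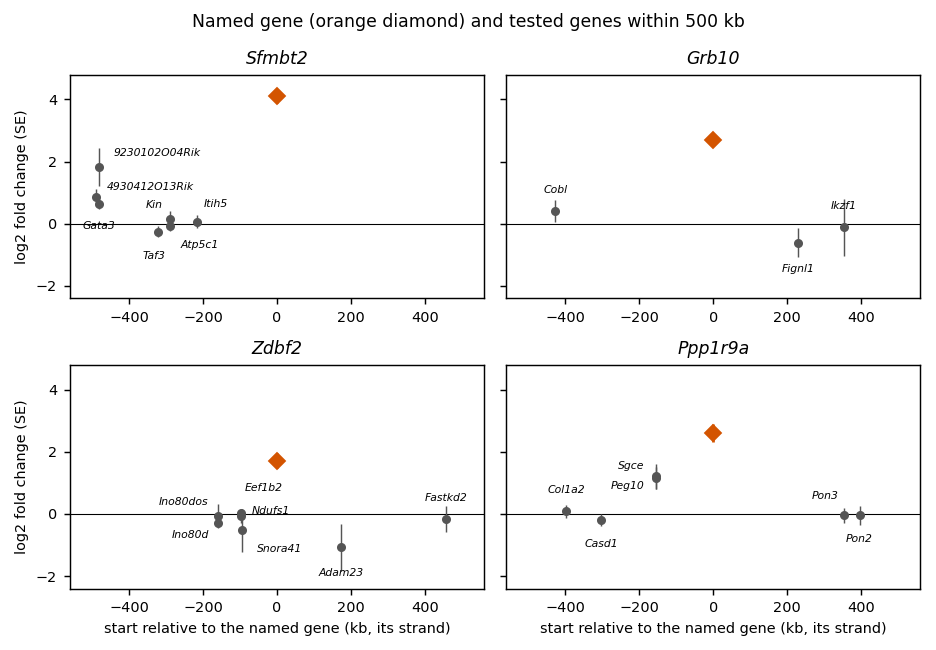
Log2 fold change (bars: SE, 3 libraries per group) of tested genes by distance of their start from that of Sfmbt2, Grb10, Zdbf2 or Ppp1r9a (orange diamonds), in kb along the gene's strand. In each panel the diamond lies above every neighbour within 500 kb.

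A wider list held 49 genes assigned to these domains, and their distances from the imprinted genes were not measured. Of the 30 tested, 3 rose and 0 fell by edgeR's test, against 2.59% and 0.404% of all genes. The median log2 fold change was -0.03. DESeq2 called 4 as higher and limma-voom 2, against 5.15% and 2.5% of all genes, and 7 rose at an unadjusted p under 0.05, against 9.5%. None fell by DESeq2 or limma-voom, and 2 fell at an unadjusted p under 0.05, against 5.44% of all genes. Pde10a, a phosphodiesterase gene, had 0.477, 0.377 and 0.227 CPM across the control libraries and 6.69, 8.35 and 6.02 CPM across the mutant libraries (log2 fold change 4.27 ± 0.51 (SE), adjusted p = 0.00238). Slc38a1, an amino acid transporter gene, had 3.61, 5.71 and 17.8 CPM across the control libraries and 73.0, 104 and 83.2 CPM across the mutant libraries (log2 fold change 3.25 ± 0.51 (SE), adjusted p = 0.00888). All mutants lay far above all controls in Slc38a1, whereas the groups of Slc38a4 overlapped. Dlx5, a homeobox gene on proximal chromosome 6, averaged 4.53 and 18.5 CPM (adjusted p = 0.0327), and its call was lost without control 1, control 2, mutant 2 or mutant 3, at up to 0.131, and by limma-voom, at 0.0665. With the block, 5 of the 30 rose, against 6.09% of all genes, and Klf14 was among them (adjusted p = 0.0390).

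Of 21 genes known to set or keep imprints, 19 were tested, with a median log2 fold change of -0.12. By edgeR's test 1 rose and 0 fell, against 2.59% and 0.404% of all genes. The values of 6 were lower in all mutant than in all control libraries and those of 1 were higher, against 9.15% and 12.1% of all genes. DESeq2 called 2 of the 19 lower and limma-voom 0, against 1.72% and 0.453% of all genes. Of the 19, 5 fell at an unadjusted p under 0.05, against 5.44% of all genes. The one called as higher was Zfp57, which protects methylated imprints in the embryo. It had 6.95, 4.89 and 12.2 CPM across the control libraries and 30.7, 31.9 and 25.1 CPM across the mutant libraries, a log2 fold change of 1.86 ± 0.33 (SE) with an adjusted p of 0.0155. All mutants exceeded all controls, and the call was lost without control 1, mutant 1 or mutant 2, at up to 0.0796. With the block, 3 of the 19 fell: the Polycomb methyltransferase gene Ezh2 from 129 to 84.5 CPM (adjusted p = 0.0146), Smchd1 from 175 to 121 CPM (0.0199) and Uhrf1 from 104 to 67.0 CPM (0.0155). Over all genes, 3.29% fell with the block. Without the block the adjusted p-values of Ezh2, Smchd1 and Uhrf1 were 0.0869, 0.102 and 0.242.

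Imprinted genes of the regions left out of the set are given for scale, and they are not all other imprinted genes. In the Dlk1-Dio3 cluster, 5 of 6 tested genes rose, with a median log2 fold change of 2.19. On distal chromosome 7, 3 of 15 tested genes rose, with a median of 0.30. Over all genes tested, 2.59% rose. No gene of either group fell by edgeR's test, DESeq2, limma-voom or an unadjusted p under 0.05. No test of a difference between these groups and the 37 genes was made, since all were chosen with the values known.

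Markers of other cells that the sort could hold are given beside these changes. Fibroblast markers summed to 1130 to 1228 CPM in controls and 1045 to 1597 CPM in mutants. Col1a1, Col1a2 and Col3a1 averaged 132, 95.5 and 91.7 CPM in controls and 102, 101 and 77.2 CPM in mutants. Of the 7 tested fibroblast markers 1 rose, Fbn1, from 24.1 to 87.1 CPM (adjusted p = 0.0137), a call lost without control 1, mutant 1 or mutant 2. Of the 8 follicle markers 1 fell, the stem cell receptor gene Lgr5, from 178 to 83.7 CPM (adjusted p = 0.0125), a call lost without control 2, mutant 1 or mutant 2. With the block 1 of 8 follicle markers rose and 3 fell. Of 6 basal keratinocyte markers 2 rose, and of 7 interfollicular markers 1 rose and 1 fell. Over all genes, 6.09% rose and 3.29% fell with the block. Endothelial markers summed to 9.27 to 12.6 CPM in controls and 11.9 to 27.1 CPM in mutants. Kdr, Emcn and Tie1, too low to test, were higher in every mutant library at 1.99, 0.657 and 1.22 CPM against 0.394, 0.0378 and 0.0855 CPM. Over all genes tested, 12.1% were higher in every mutant library. Melanocyte markers summed to 24.5 to 35.9 and 23.0 to 41.5 CPM, and Merkel cell markers to 14.0 to 42.7 and 27.1 to 31.8 CPM. Schwann cell and neuron markers summed to 5.59 to 13.4 CPM in controls and 4.77 to 9.96 CPM in mutants, with Elavl4 at 0.0946 and 0.119 CPM. Immune markers summed to 14.2 to 69.1 and 15.0 to 24.8 CPM and skeletal muscle markers to 1.26 to 3.12 and 1.14 to 2.69 CPM, with Cd207 at 0 in all mutants and Myod1 at 0 in all controls. Of these lists, those for endothelium, melanocytes, Schwann cells and neurons, Merkel cells, immune cells and muscle had 0 called genes of 17 tested by edgeR's test with or without the block, by DESeq2 and by limma-voom, and 0 at an unadjusted p under 0.05. The 17 were, in that order, 2 of 5, 4 of 6, 4 of 7, 2 of 5, 4 of 6 and 1 of 5 markers. Over all genes, 2.59% rose and 0.404% fell by edgeR's test, and 9.5% and 5.44% at an unadjusted p under 0.05. With so few genes tested, 0 called does not show that these cells were unchanged. The part of any cell type in the changes above was not tested.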

How the data were processed

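Per the labels' protocols, sorted cells gave 10 ng of total RNA per library, which was amplified with a low-input kit and sequenced as single reads of 100 nucleotides. The authors deposited raw counts of reads for each gene symbol, in a separate file for every library. The submitters' processing notes name mm10, HTSeq 0.6.1, TopHat2 2.0.13, DESeq2 1.6.3 and Cufflinks 2.2.1, with no roles. For strand setting and annotation, nothing is stated in the sources used here. Every 2 libraries differed by more than sampling noise (chi-square per degree of freedom at least 25.1 over 15 pairs).

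Counts were fitted with edgeR 4.0.16 in R 4.3.3 (TMM, filterByExpr, quasi-likelihood, two-sided, Benjamini-Hochberg over 14345 genes, called under 0.05). The filter removed 0.0971% of counts. CPM use TMM library sizes, and SEs come from the F statistic. A count of 0 allows 3 counts, and intervals cover counting error only, since amplified reads are not independent molecules. DESeq2 1.42.0 and limma-voom (limma 3.58.1) were among 14 alternatives, with other scalings and filters (at least 1 CPM in 3 libraries, or none), the replicate block and each library left out. The steps were tested on simulated data. GENCODE on GRCm38, the same assembly as mm10, gave coordinates and exon lengths.

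The labels number the libraries 1 to 3 in both groups without saying what a number marks. Deviations from the group means correlated at 0.205, 0.168 and 0.363 for the same number and at most at 0.0891 for others, over a minimum of 0.1, so the pairing comes from the data.

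The members and lists were chosen with earlier results of these data known. Values in every library are printed for genes called with or without the block, for genes whose groups do not overlap and for genes of at least 20 CPM in either group. Of other lists, called genes are named, and others by the smallest p. Gata3, 4930412O13Rik, 9230102O04Rik and the uncalled marker genes were named after their values were seen. One result of the wider list is not reported here.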

Additional observations from a re-analysis of the deposited data

How the results depend on the processing

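Sfmbt2, Grb10, Ppp1r9a and Zdbf2 were called as higher in all 14 alternative fits. With the replicate block, the imprinted genes called rose from 4 to 7, and over all genes 873 rose and 472 fell, against 372 and 58 without it. DESeq2 called 739 genes up and 247 down, with 6 of the imprinted genes up, Peg10 and Peg13 being the additions, and without a filter 109 fell. With single libraries left out, 143 to 554 genes rose and 19 to 110 fell, 4 to 6 of the imprinted genes rose and 0 fell, and their median log2 fold change was 0.08 to 0.28. Leaving out libraries turned the sign of genes that were never called, with log2 fold changes from -0.11 to 0.31 for Zim1, -0.24 to 0.27 for Plagl1, -0.13 to 0.25 for Trappc9, -0.23 to 0.087 for Gnas, -0.13 to 0.42 for Usp29, -0.24 to 0.024 for Commd1, -0.29 to 0.033 for Inpp5f and -0.81 to 0.37 for Nap1l5. Across single genes and alternatives, 426 values kept their direction and side of the threshold, 14 changed sign and 7 passed the threshold only under the alternative. The cause was not tested. Depth limits Asb4, Magel2, Peg12, Ndn and Mkrn3, which had few reads.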
